A study of Mus musculus with 48 samples.

Results

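Expression of the enzymes that write and erase acetyl and methyl groups on histones and DNA was followed in hippocampus of male C57BL/6J mice after chronic intermittent ethanol (CIE). The members were all genes whose single symbol on the array begins with Hdac, Sirt, Kdm, Kmt, Kat or Dnmt followed by a digit, together with Tet1, Tet2 and Tet3. This name rule gave 59 genes of the 18193 with a symbol of their own on the Affymetrix 430 2.0 array, and these genes had 147 of the 45037 probe sets. A probe set is a group of short probes designed to read 1 transcript region, but those named _x_at or _s_at can match further transcripts. The probe set with the highest mean over all 48 arrays stood for each gene as its main probe set, and the 88 other probe sets, which 37 of the genes had, were read separately. Of the main probe sets 2 were _x_at, those of Dnmt1 (1435122_x_at) and Kdm6b (1447612_x_at). A further 9 were _s_at, that of Kdm2b (1459861_s_at) among them. Matches of these probe sets to other transcripts were not checked. The members were 4 class I histone deacetylases (HDACs), 4 of class IIa, 3 of class IIb or IV, 7 sirtuins, 8 acetyltransferases, 8 histone methyltransferases, 18 histone demethylases and 7 genes of DNA methylation and its removal.

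CIE mice were kept in vapor chambers, at 10 to 13 mg/l of ethanol, with 4 daily sessions of 16 h followed by 7 days of abstinence, for 4 cycles in all. They were primed before each exposure with 1.6 g/kg ethanol and 1 mmol/kg pyrazole, which slows ethanol clearance. The control (Ctrl) chambers held air, and Ctrl mice were given saline with the same dose of pyrazole, so that pyrazole was given in every group. The last exposure was followed by harvest of hippocampus at 0 h, 8 h, 72 h or 7 d, with 6 mice per treatment and time and an array for each mouse. All members were measured in bulk tissue, where fewer cells of a type and less RNA per cell cannot be told apart.

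Histone acetyltransferases add acetyl groups to lysines, which loosens chromatin at active genes, and the HDACs and the NAD-dependent sirtuins take them off. Lysine methyltransferases and demethylases set methyl marks that go with either active or silent chromatin, depending on the residue. DNA methyltransferases methylate cytosine in CG pairs, and the TET enzymes oxidize that mark on the way to its removal. In hippocampal neurons these enzymes are studied for their part in memory and in the response to drugs of abuse, ethanol included.

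The arrays were alike in overall signal, with correlations of 0.97 to 1.00 between arrays. Defining genes of hippocampal CA1 and dentate cells were above the median of all probe sets for 7 of 7 genes, as were 6 of 6 neuronal, 5 of 5 astrocyte and 5 of 5 microglial genes. So were 4 of 4 oligodendrocyte, 2 of 3 endothelial and 2 of 5 choroid plexus genes, but 0 of 2 blood genes. Of the genes of striatum and thalamus 4 of 5 were above it too, so this reading does not tell hippocampus from these regions. A pair of Ctrl mice at 7 d, mouse 18 and mouse 22, stood apart from the rest. Their mean level over 5 genes of striatum and thalamus was 8.24 and 8.21, against 6.70 to 7.67 in the other 46 mice. Their log2 levels of the dopamine receptor gene Drd1, a marker of striatal neurons, were 10.18 and 10.49, against 6.74 to 9.27 in the others. The calls of members at 7 d are therefore given with and without these 2 mice. Other differences at 7 d, and results over all times, include them unless stated.

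The spread among mice of 1 group had a median SD of 0.12 over the 59 main probe sets on the log2 scale. The means of the 8 groups of a member lay up to 0.66 apart for Kmt5a and 0.63 for Hdac8, and no CIE minus Ctrl difference of a main probe set at any time was larger than 0.46. Differences were tested with limma over all 45037 probe sets, and calls were made at an adjusted p (false discovery rate, FDR) of up to 0.01. By this rule 3 of the 59 members were called at 8 h (2.29% of all 18193 genes) and 2 at 7 d (1.03% of all genes). At 0 h (1.64% of all genes) and at 72 h (0.0055%) 0 were called. The counts of 0 stood beside 11 members (18.6%) with an unadjusted limma p under 0.05 at 0 h and 7 (11.9%) at 72 h, against 18.6% and 7.57% of all genes. In order of time, the median change over the members was -0.01, -0.03, 0.04 and 0.04, against 0.04, 0.01, 0.01 and 0.03 over all genes.

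**Figure D1:**
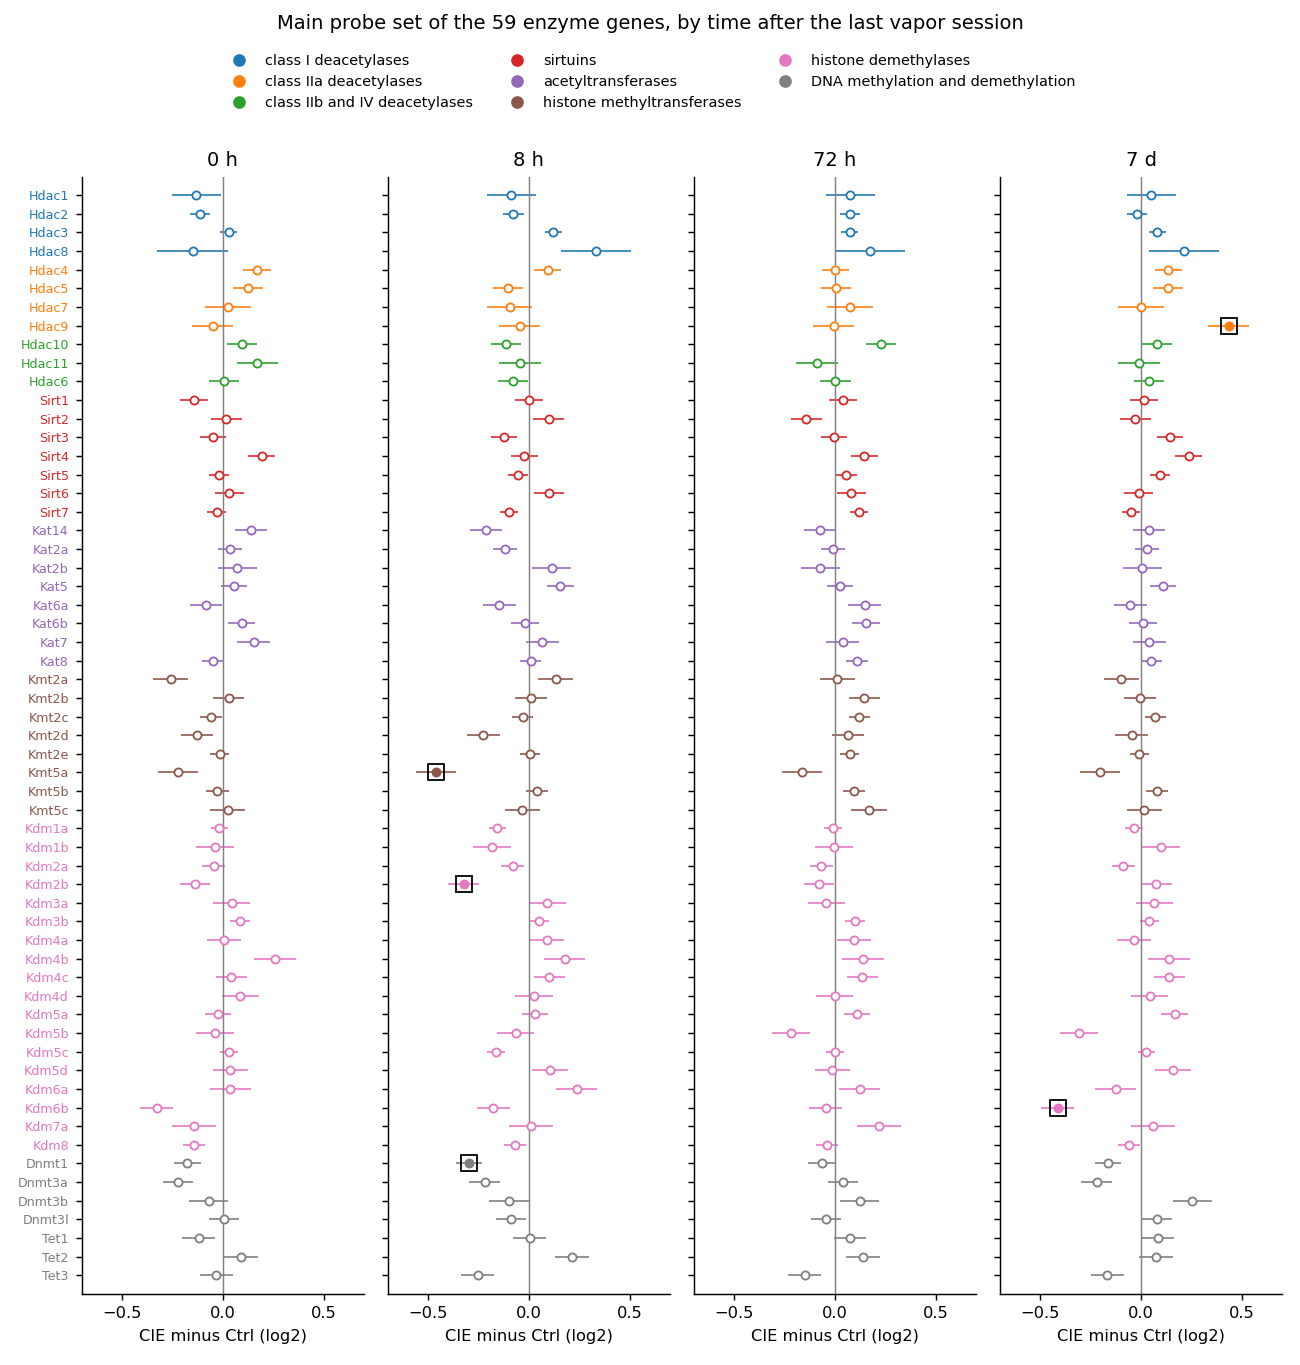
Log2 change (CIE minus Ctrl) of the main probe set of each of the 59 members at 0 h, 8 h, 72 h and 7 d after the last exposure, by enzyme family, with called changes marked (limma, FDR of 0.01 or less, n = 6 mice per group). All changes lie within 0.46 of 0, and the 5 called ones are Kmt5a, Dnmt1 and Kdm2b at 8 h and Hdac9 and Kdm6b at 7 d.

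At 8 h, during withdrawal, 3 writers and erasers of methyl marks were lower in CIE than in Ctrl hippocampus. These were Kmt5a, which monomethylates lysine 20 of histone H4, Dnmt1, which copies DNA methylation onto the new strand after replication, and Kdm2b, a demethylase of histone H3 that binds unmethylated CG-rich DNA through a zinc finger. All 3 had lower values, while 0.693% of all genes were called lower at this time and 1.6% higher. Tet2, which oxidizes methylated cytosine, rose at a probe set other than its main one. An annotated promoter window of each of these 4 genes is shown. Of the enzymes 2 act on CG pairs and Kdm2b binds them when unmethylated, but whether any of them acts on these windows was not tested. The windows are 300 bases of RefSeq sequence on GRCm38.p6, reaching 250 bases before and 50 bases after an annotated start, and each was the window of the gene with the most CG pairs. Which start is used in hippocampus was not measured, so a window shown need not be the main promoter of its gene. Capitals mark the GC box GGGCGG on either strand, the element bound by Sp1.
Kmt5a, chr5:124445249-124445548, plus strand: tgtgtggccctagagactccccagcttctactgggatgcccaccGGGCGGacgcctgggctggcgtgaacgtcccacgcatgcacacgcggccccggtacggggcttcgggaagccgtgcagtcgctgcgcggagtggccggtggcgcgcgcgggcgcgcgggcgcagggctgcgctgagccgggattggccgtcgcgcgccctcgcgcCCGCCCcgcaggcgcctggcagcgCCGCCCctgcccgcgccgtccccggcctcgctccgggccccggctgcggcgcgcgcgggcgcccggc
Dnmt1, chr9:20952574-20952873, minus strand: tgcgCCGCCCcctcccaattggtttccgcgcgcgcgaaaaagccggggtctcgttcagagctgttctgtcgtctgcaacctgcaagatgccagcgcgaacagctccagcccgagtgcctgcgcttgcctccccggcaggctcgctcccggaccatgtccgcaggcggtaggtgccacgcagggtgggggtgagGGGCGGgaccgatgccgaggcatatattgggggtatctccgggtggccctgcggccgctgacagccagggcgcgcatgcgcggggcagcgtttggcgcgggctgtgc
Kdm2b, chr5:122900301-122900600, minus strand: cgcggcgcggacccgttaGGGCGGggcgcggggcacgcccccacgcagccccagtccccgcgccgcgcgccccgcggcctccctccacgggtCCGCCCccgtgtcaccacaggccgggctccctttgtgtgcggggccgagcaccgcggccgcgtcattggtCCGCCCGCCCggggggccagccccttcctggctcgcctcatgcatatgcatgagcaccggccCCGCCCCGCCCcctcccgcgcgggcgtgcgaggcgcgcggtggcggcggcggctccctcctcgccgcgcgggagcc
Tet2, chr3:133544341-133544640, minus strand: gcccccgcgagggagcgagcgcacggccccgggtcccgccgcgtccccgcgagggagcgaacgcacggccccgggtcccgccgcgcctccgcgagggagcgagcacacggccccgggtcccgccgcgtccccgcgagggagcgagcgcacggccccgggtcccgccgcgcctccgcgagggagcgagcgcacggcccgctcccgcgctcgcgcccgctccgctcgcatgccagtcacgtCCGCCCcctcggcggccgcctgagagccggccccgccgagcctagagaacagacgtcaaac

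These windows held 51 CG pairs in Kmt5a, 33 in Dnmt1, 49 in Kdm2b and 57 in Tet2. The median over all 32851 windows, which were not picked in this way, was 7. The windows were picked for their CG pairs, and the others of the same genes held fewer, with 18 and 9 in Kmt5a, 12 and 2 in Dnmt1 and 47, 28 and 18 in Kdm2b, while Tet2 had 1 window. The GC box occurred in 65.8% of the 73 windows found for 48 of the members, against 35.7% of all windows. Searched on both strands, the cAMP response element TGACGTCA was in 0 of the 73 member windows and in 1.79% of all windows. The E-box CACGTG was in 9.59% of member windows and 7.15% of all. The E2F motif TTTCCCGC was in 2.74% of member windows and 1.07% of all. Neither of the last 2 motifs occurred in the 4 windows shown. These are matches of letters only, and no binding or methylation was measured here.

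The lower level of Kmt5a at 8 h was the largest change of any main probe set. Its log2 level in CIE mice had a lowest value of 9.48, a median of 9.65 and a highest of 9.87, against 9.84, 10.14 and 10.43 in Ctrl mice. The groups overlapped narrowly, and of the 36 ways to pair a CIE with a Ctrl mouse, the CIE mouse was the higher in 1. The difference was -0.46 ± 0.10 (SE, n = 6 mice per group, limma adjusted p = 0.00241). At the other times Kmt5a differed by -0.22 at 0 h, -0.16 at 72 h and -0.20 at 7 d, none of them called. Of its other probe sets at 8 h, 1460687_at differed by 0.00, 1459779_s_at by -0.06 and 1441557_at by -0.34, and none was called.

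Of the 7 genes of DNA methylation and its removal, Dnmt1 was called at 8 h by its main probe set. Its log2 level was 8.99 at the lowest, 9.02 at the median and 9.18 at the highest in CIE mice, against 9.12, 9.35 and 9.59 in Ctrl mice. Nearly all CIE mice were thus below the Ctrl mice, and the CIE mouse was higher in 2 of 36 pairs. The difference was -0.30 ± 0.07 (SE, limma adjusted p = 0.004). The other Dnmt1 probe sets lay on the same side at 8 h, with -0.23 for 1422946_a_at (adjusted p = 0.0613) and -0.19 for 1447877_x_at (adjusted p = 0.114). At the other times Dnmt1 differed by -0.18, -0.07 and -0.17 at 0 h, 72 h and 7 d, none of them called. Dnmt3a, which places new methyl groups on DNA, was not called at its main probe set at a single time, with -0.22 at 8 h (adjusted p = 0.0874). Its log2 levels at 8 h lay between 9.60 and 9.82 in CIE mice, against 9.80 to 10.15 in Ctrl mice. It was among the 3 members with the smallest p at 0 h, with -0.22 (adjusted p = 0.0753), and it differed by 0.04 at 72 h (adjusted p = 0.934) and -0.22 at 7 d (adjusted p = 0.0756).

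Of these 3 enzymes Kdm2b had groups that were fully apart at 8 h. CIE mice had a lowest log2 level of 9.89, a median of 10.03 and a highest of 10.17, and Ctrl mice had 10.24, 10.35 and 10.52. Every CIE mouse was below every Ctrl mouse, and the difference was -0.32 ± 0.07 (SE, limma adjusted p = 0.00533). A further probe set of Kdm2b, 1452198_at, differed by 0.00 at 8 h, so the change was seen at 1 of its 2 probe sets. At 0 h, 72 h and 7 d the main probe set differed by -0.14, -0.08 and 0.08. Over the main probe sets of all members, 4 had groups that did not overlap at 8 h, where 3.62% of all genes did: Kdm2b, Tet3 and Kdm1a with CIE lower, and Hdac3 with CIE higher. Of these only Kdm2b was called, and the others had adjusted p of 0.0598 for Tet3, 0.0256 for Kdm1a and 0.0956 for Hdac3.

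The smallest adjusted p of any member probe set at a single time belonged to the rise of Tet2 at its probe set 1455300_at at 8 h. Its log2 level in CIE mice was 9.47, 9.66 and 9.71 (lowest, median and highest), against 8.92, 9.06 and 9.19 in Ctrl mice. All 36 pairs had the CIE mouse higher, and how often this is so among such probe sets of all genes was not computed. The difference was 0.56 ± 0.08 (SE, limma adjusted p = 1.99e-05). The call was kept in each of the 18 alternatives run, with adjusted p between 1.33e-05 and 0.000708. Of these alternatives 12 left out 1 mouse each, and none drew on the main probe set of Tet2. CIE was above Ctrl at this probe set at the other times too, by 0.25 at 0 h, 0.36 at 72 h and 0.26 at 7 d, none of them called. It was the only probe set among the 88 others to be called at 8 h, where 2.57% of such probe sets of all genes were. The main probe set of Tet2, 1438781_at, differed by 0.21 at 8 h (adjusted p = 0.145) and by 0.09, 0.14 and 0.07 at 0 h, 72 h and 7 d. Both Tet2 probe sets thus lay above Ctrl at each time, with a called difference at 1 of them.

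**Figure D2:**
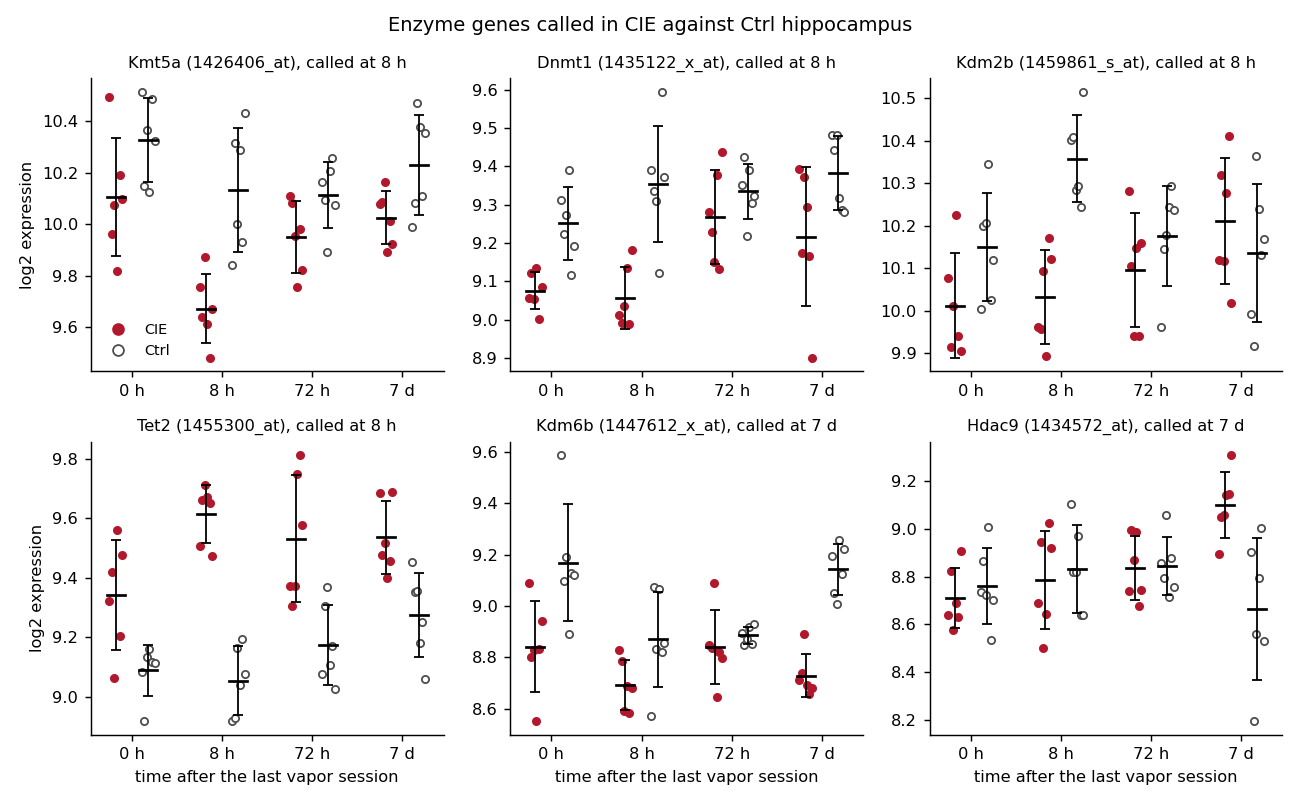
Log2 expression in each mouse, by time and treatment (CIE left of Ctrl at each time), of the 5 members whose main probe set was called at a time and of the Tet2 probe set 1455300_at. Points are mice (n = 6 per group), short lines are group means and error bars are SD; Kdm2b and Tet2 at 8 h and Kdm6b at 7 d show no overlap of the groups.

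Markers were read at 8 h too. Neat1, a nuclear noncoding RNA, was higher in CIE mice, with 11.19, 11.29 and 11.40 (lowest, median and highest), against 10.61, 10.70 and 11.02 in Ctrl mice, a difference of 0.56 ± 0.10 (SE, adjusted p = 0.000451). Of 4 oligodendrocyte genes 0 were called and 2 had an unadjusted limma p under 0.05 (18.4% of all genes), but all 4 lay above Ctrl, by 0.14 to 0.68. The level of that list was 10.60 to 11.09 in CIE mice and 10.30 to 10.98 in Ctrl mice. At 0 h 1 of 5 choroid plexus genes was called, Otx2 (-1.21, limma adjusted p = 0.00738), while 2 of the 5 lay above Ctrl. Of 5 microglial genes at 0 h, 4 lay above Ctrl and 3 had an unadjusted limma p under 0.05 (18.6% of all genes). The part of these markers in the 0 h and 8 h differences of the enzymes was not tested.

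The 3 lower genes at 8 h did not keep their calls under every alternative. Leaving out 1 of the 12 mice of that time ended the call of Kmt5a for 2 mice (Ctrl mice 8 and 79), of Dnmt1 for 4 (CIE mice 21 and 41, Ctrl mice 66 and 79) and of Kdm2b for 5 (CIE mice 15, 21 and 25, Ctrl mice 8 and 79), with adjusted p up to 0.0244. It ended the call of Tet2 for 0. Hybridization sets are groups of arrays inferred from values that they share exactly. Ctrl mouse 2 of 0 h is in no set and was left out of every fit with the set as a block. No list of batches was given in the sources used here against which to check them. With the set as a block, adjusted p was 0.00652 for Kmt5a, 0.0101 for Dnmt1, 0.0119 for Kdm2b and 0.000117 for Tet2. With the 12 arrays of 8 h alone, 0 of the 3 kept their calls and Tet2 did.

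At 7 d the demethylase Kdm6b fell and the class IIa deacetylase Hdac9 rose. Kdm6b removes methyl groups from lysine 27 of histone H3, a silencing mark, and is induced in macrophages and microglia by inflammatory signals. Hdac9 is a deacetylase that binds MEF2 transcription factors and shuttles between nucleus and cytoplasm with neuronal activity. Both calls ended when Ctrl mice 18 and 22, which had the striatal markers, were left out. Calls over the whole array then numbered 11 of 45037, against 604 with all 48 arrays.

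Kdm6b at 7 d had log2 levels of 8.66, 8.70 and 8.89 (lowest, median and highest) in CIE mice, against 9.01, 9.16 and 9.26 in Ctrl mice. Every CIE mouse was below every Ctrl mouse, which was so for 0.214% of all genes. The difference was -0.41 ± 0.08 (SE, limma adjusted p = 0.0031), and it was -0.42 ± 0.09 without Ctrl mice 18 and 22, with an adjusted p of 0.0308. The size of the difference was thus nearly the same without them, on 4 Ctrl mice. Leaving out single mice ended the call for Ctrl mouse 18 (adjusted p = 0.0117) and CIE mouse 45 (adjusted p = 0.0114).

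The main probe set of Kdm6b was not called at the other times. At 0 h its difference was -0.33 ± 0.08 (adjusted p = 0.0121), with the CIE mouse higher in 2 of 36 pairs. It was -0.25 with the hybridization set as a block (adjusted p = 0.0986), a fit that also leaves out Ctrl mouse 2. At 8 h it was -0.18 and at 72 h -0.05. Among Ctrl mice the 8 h minus 0 h difference of Kdm6b was -0.30 (adjusted p = 0.026), in which time of day and time since exposure cannot be told apart. Its probe set 1456610_at fell by 0.44 at 0 h (adjusted p = 0.00881), with 8.19, 8.50 and 8.81 in CIE mice, against 8.70, 8.82 and 9.37 in Ctrl mice. The same probe set differed by -0.41 at 7 d (adjusted p = 0.0161), and a further one, 1442643_at, by -0.27, 0.20, 0.21 and -0.01 at the 4 times.

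Hdac9 at 7 d had log2 levels of 8.89, 9.10 and 9.31 in CIE mice, against 8.19, 8.68 and 9.00 in Ctrl mice (lowest, median and highest). The CIE mouse was the higher one in 34 of 36 pairs, and Ctrl mouse 22 had the lowest value. The difference was 0.43 ± 0.10 (SE, limma adjusted p = 0.00869), and it was -0.05, -0.05 and -0.01 at 0 h, 8 h and 72 h. Without Ctrl mice 18 and 22 it was 0.38 ± 0.10 (adjusted p = 0.0717), and leaving out any 1 of 11 of the 12 mice ended the call, with adjusted p up to 0.0473. A further Hdac9 probe set, 1421306_a_at, differed by 0.03. Hdac9 kept its call in 4 of the 21 alternatives run and Kdm6b in 16 of 21, where 12 of the 21 left out 1 mouse each.

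Cell type markers differed between CIE and Ctrl mice at 7 d, with Ctrl mice 18 and 22 included unless stated. The level of the striatum and thalamus list was 6.70 to 7.17 in CIE mice and 7.06 to 8.24 in Ctrl mice. Ctrl mice 18 (8.24) and 22 (8.21) had its highest levels, and without them the Ctrl range was 7.06 to 7.37. The CA1 and dentate list was at 10.22 to 10.65 in CIE mice and 8.99 to 10.44 in Ctrl mice. The choroid plexus list was at 6.24 to 6.83 in CIE mice and 5.28 to 6.28 in Ctrl mice. The astrocyte list was at 11.17 to 11.64 in CIE mice and 10.53 to 11.34 in Ctrl mice. All 5 astrocyte genes lay above Ctrl, by 0.08 to 0.71. Of them 0 were called and 3 had an unadjusted limma p under 0.05 (18.7% of all genes). Drd1 was called lower in CIE (-1.43), while Kl (1.05), a choroid plexus gene, and Tmem119 (0.40), a gene of microglia, were called higher. The part of these lists in the differences of Kdm6b and Hdac9 was not tested beyond leaving out the mice named.

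The other families held few calls at single times. In order of time 1.64%, 2.29%, 0.0055% and 1.03% of all genes were called, so counts of 0 in such small families are no trait of them. At an unadjusted limma p under 0.05 were 18.6%, 18.4%, 7.57% and 18.7% of all genes. The class I HDACs had 1, 1, 0 and 0 members at such a p. Among the class I HDACs, the nuclear deacetylases of corepressor complexes, 0 of 4 were called at any time, and the main probe set of Hdac3 had the smallest p of the family, with 0.08 averaged over the times (adjusted p = 0.0101). Among the class IIa enzymes Hdac4, a deacetylase needed for memory in mice, differed by 0.17, 0.09, 0.00 and 0.13 at its main probe set, none called. Its probe set 1436758_at rose at 0 h by 0.21 ± 0.05 (SE, adjusted p = 0.00831). The log2 levels there were 7.91, 7.95 and 8.07 in CIE mice, against 7.70, 7.75 and 7.88 in Ctrl mice, with no overlap. The share of such probe sets of all genes without overlap was not computed. The call was lost for 9 of the 12 mice left out. Of the class IIb and IV enzymes 0 of 3 were called, with 0, 0, 1 and 0 at an unadjusted limma p under 0.05 in order of time. Hdac6, the cytoplasmic tubulin deacetylase, differed by at most 0.08 in size, and Hdac10 had the smallest p of any member at 72 h, with 0.23 ± 0.08 (adjusted p = 0.26). The other members with the smallest p at 72 h were Sirt7, a nucleolar sirtuin, with 0.12 (adjusted p = 0.361), and Kdm5b, a demethylase of lysine 4 of histone H3, with -0.22 (adjusted p = 0.439).

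Of the 7 sirtuins 0 were called at a single time, with 2, 1, 2 and 2 at an unadjusted limma p under 0.05 in order of time. The mitochondrial Sirt4 was above Ctrl by 0.19 at 0 h, 0.14 at 72 h and 0.24 at 7 d (adjusted p = 0.0297), and it differed by -0.02 at 8 h. Acetyltransferases were called at no time either, 0 of 8, and their main probe sets stayed within -0.21 and 0.16. At an unadjusted limma p under 0.05 were 0, 3, 1 and 0 of them in order of time. The value of -0.21 belonged to Kat14, a subunit of the ATAC complex, at 8 h. Kat6a, which acetylates histone H3, differed by -0.08, -0.15, 0.15 and -0.05 at its main probe set. Of the methyltransferases of lysine 4 of histone H3, Kmt2a was among the 3 members with the smallest p at 0 h, with -0.26 ± 0.09 (adjusted p = 0.0695). The demethylase Kdm5c, whose human counterpart is a gene of X-linked intellectual disability, differed by -0.16 ± 0.04 at 8 h (adjusted p = 0.0191) and by 0.03 or less in size at the other times.

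Averaged over the 4 times, 6 of the 59 members were called, against 7.9% of all genes. Of these, 5 were lower and 1 was higher, while 1.91% of all genes were called lower and 5.99% higher. Those lower in CIE were Kdm6b (-0.24, adjusted p = 3.67e-05), Kmt5a (-0.26, 0.000118), Dnmt1 (-0.18, 0.000134), Dnmt3a (-0.16, 0.00277) and Tet3 (-0.15, 0.00691), and Sirt4 was higher (0.14, 0.00266), all by limma. Tet3, an oxidase of methylated cytosine, lay outside the rule for named genes and is named because its value completes the count. Dnmt1, Dnmt3a and Tet3 belonged to the 7 genes of DNA methylation and its removal. Of these 7, 3 lay above Ctrl averaged over the times, by up to 0.13, and the median of the 7 was -0.01. In a joint test of the 4 times 6 members were called, against 6.23% of all genes, and these were Kdm6b, Kmt5a, Dnmt1, Dnmt3a, Sirt4 and Kdm2b. No member was called for a difference of its CIE effect between 2 times in any of the 6 pairs of times. No change was thus shown to belong to 1 time. At an unadjusted limma p under 0.05 were 4 to 12 members (6.78% to 20.3%), against 9.18% to 12.4% of all genes. The share of all genes called was 0.033% for 8 h minus 0 h, 0.0275% for 72 h minus 0 h, 0.066% for 7 d minus 0 h, 0.011% for 72 h minus 8 h, 0.0715% for 7 d minus 8 h and 0.0% for 7 d minus 72 h.

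The other probe sets of the members are annotated to the same genes. Which transcript regions they read was not known here. In order of time, 4, 1, 0 and 4 of these 88 were called, against 2.23%, 2.57%, 0.0% and 1.76% of the probe sets that were not the main one of their gene. At 72 h 18 of the 88 (20.5%) had an unadjusted limma p under 0.05, against 11.0% of such probe sets of all genes. Averaged over the times 21 of 88 were called, 3 higher and 18 lower, against 13.4% of such probe sets, 5.44% higher and 7.94% lower. The direction was that of the main probe set for 53, 49, 44 and 57 of the 88 at 0 h, 8 h, 72 h and 7 d. Of the 88, 45 lay below the median of all probe sets, 6.62, as did 5 of the 59 main ones.

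The largest called change among these probe sets was in Dnmt3a. At probe set 1423065_at CIE mice at 7 d had log2 levels of 6.98, 7.83 and 8.45, against 8.49, 9.16 and 9.67 in Ctrl mice (lowest, median and highest). The groups did not overlap, and the difference was -1.28 ± 0.29 (SE, limma adjusted p = 0.00728). How often groups do not overlap among such probe sets of all genes was not computed, here or for the probe sets below. It was -0.99, -0.77 and -0.84 at 0 h, 8 h and 72 h, not called at these times. At 7 d the probe set 1423066_at differed by -1.08 (adjusted p = 0.014), 1423063_at by -0.26 and 1423064_at by -0.22, and the main one, 1460324_at, by -0.22. The Dnmt3a probe sets thus lay on 1 side at 7 d but differed in size.

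Kmt2c, a methyltransferase of lysine 4 of histone H3, fell at its probe set 1457193_at at both 0 h and 7 d. The log2 levels at 0 h were 7.43, 8.08 and 8.83 in CIE mice, against 8.60, 8.83 and 9.37 in Ctrl mice, a difference of -0.79 ± 0.17 (SE, adjusted p = 0.00311). At 7 d they were 7.60, 8.12 and 8.44 in CIE mice, against 8.52, 8.86 and 9.06 in Ctrl mice, with no overlap and a difference of -0.74 (adjusted p = 0.00674). Its main probe set differed by -0.06 at 0 h and 0.07 at 7 d, so the fall was not seen there.

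Kdm5a, a further demethylase of lysine 4 of histone H3, fell at 1437106_at at 7 d. CIE mice had 5.67, 6.16 and 6.80, against 6.85, 7.16 and 7.38 in Ctrl mice, with no overlap and a difference of -0.92 ± 0.21 (adjusted p = 0.00837), while its main probe set differed by 0.16. Its probe set 1452360_a_at differed by -1.09 at 0 h (adjusted p = 0.0539) and -0.97 at 7 d (adjusted p = 0.0881), not called at these times, and was called lower averaged over the times (-0.83, adjusted p = 0.000484). Kmt5b, which adds further methyl groups to lysine 20 of histone H4, fell by 0.48 ± 0.11 at 1425740_at (adjusted p = 0.00961), with 5.44, 5.54 and 6.01 in CIE mice, against 5.80, 6.08 and 6.45 in Ctrl mice. Kat6a fell by 0.53 at 0 h at 1446405_at (adjusted p = 0.00505), at the dim levels of 4.16, 4.29 and 4.52 in CIE mice and 4.45, 4.84 and 5.41 in Ctrl mice. Without Ctrl mice 18 and 22 none of the 4 calls at 7 d was kept, the differences being -1.04 for Dnmt3a, -0.66 for Kmt2c, -0.85 for Kdm5a and -0.32 for Kmt5b, with adjusted p of 0.0841 to 0.172. With the hybridization set as a block 0 of the 8 calls at 0 h and 7 d were kept. That fit also leaves out Ctrl mouse 2 of 0 h. Leaving out this mouse alone ended each of the calls at 0 h, with adjusted p of 0.016 to 0.0449.

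**Figure D3:**
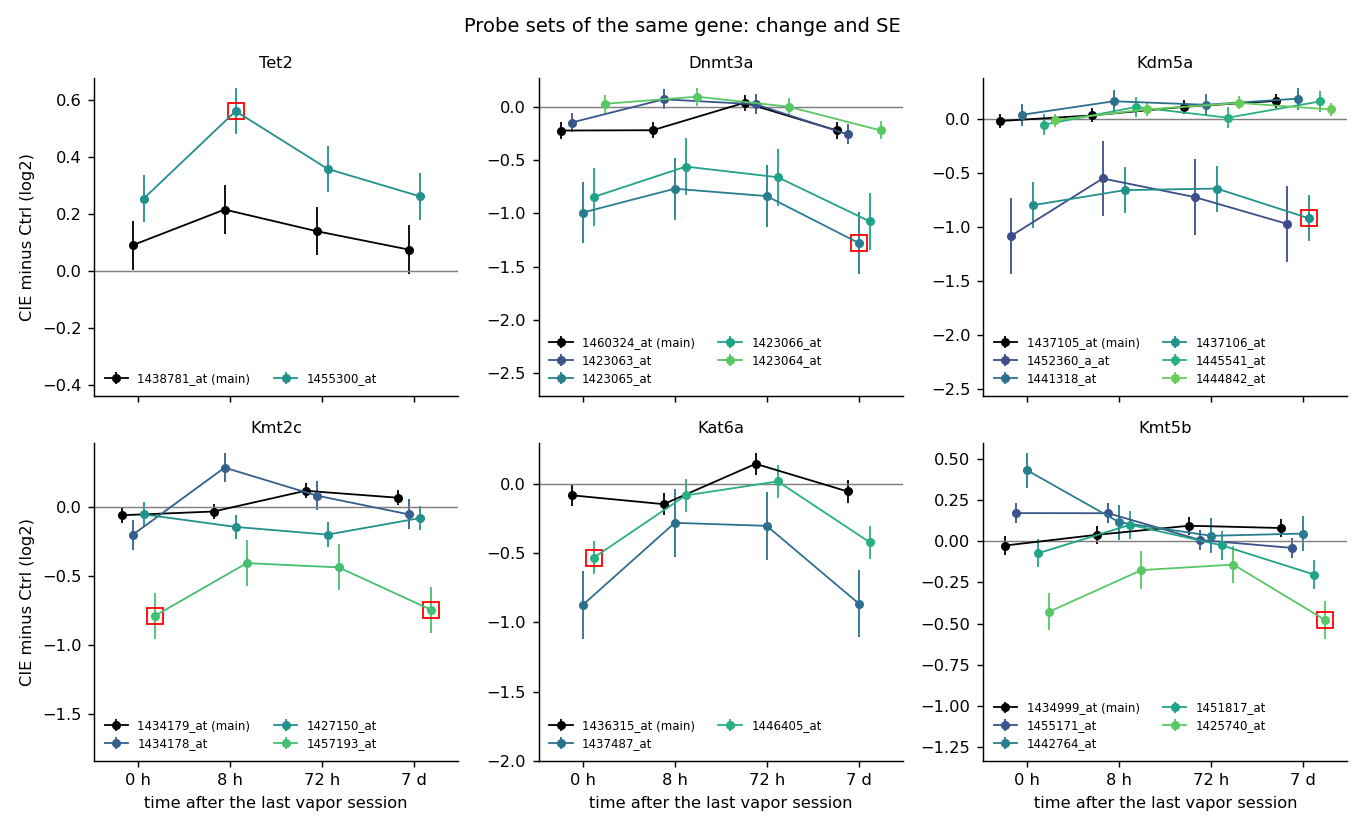
Log2 change (CIE minus Ctrl, with SE) by time of the main and the other probe sets of 6 members, Tet2, Dnmt3a, Kdm5a, Kmt2c, Kat6a and Kmt5b, with called changes of other probe sets in red squares (n = 6 mice per group). Dnmt3a, Kmt2c and Kdm5a show probe sets with changes of -0.74 to -1.28 at 7 d beside main probe sets between -0.22 and 0.16.

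Several of these probe sets moved with Malat1, an abundant nuclear noncoding RNA. At 0 h the mean of 7 Malat1 probe sets was 9.96 ± 0.58 in CIE mice, against 10.99 ± 0.35 in Ctrl mice (SD, n = 6 each). The 7 probe sets did not move alike: 5 differed by -0.97 to -1.63 at 0 h, of which 1 was called (adjusted p = 0.00404), and the other 2 differed by -0.18 and 0.01. At 8 h the mean was 9.46 ± 0.36 with CIE, against 9.83 ± 0.60 with Ctrl treatment. At 72 h these means were 9.36 ± 0.47 for CIE and 9.91 ± 0.28 for Ctrl, and at 7 d 9.82 ± 0.56 for CIE and 10.70 ± 0.29 for Ctrl. The deviation of each mouse from its group mean was set against that of Malat1 for all 147 member probe sets, by permutation tests adjusted over the 147. For Dnmt3a 1423065_at Pearson's r was 0.96 and Spearman's rho 0.97 over 48 mice (each permutation p = 1e-05, the smallest the permutations can give; adjusted p = 5.65e-05 for r). Without the 2 mice farthest from the median of Malat1 r was 0.96, and within the 6 hybridization sets it was between 0.92 and 0.99. The r was 0.95 for Kdm5a 1452360_a_at, 0.94 for Kdm5a 1437106_at and 0.82 for Kmt2c 1457193_at. It was over 0.8 for 9 of the 88 other probe sets and for 0 of the 59 main ones. The main probe set of Kdm5b came near this, with r of 0.79 and rho of 0.81, and within the hybridization sets its r was between 0.65 and 0.91. The share of all probe sets of the array with r over 0.8 was not computed. These counts therefore do not show a trait particular to the members. For the main probe set of Dnmt3a r was 0.06 (adjusted p = 0.773) and rho 0.10 (adjusted p = 0.613), and for Tet2 1455300_at r was -0.24 (adjusted p = 0.169) and rho -0.29 (adjusted p = 0.0846), by the same permutation tests. The main probe set of Kdm6b lay between, with r of 0.67 and rho of 0.64, and within the hybridization sets its r ran over -0.28 to 0.98. For Hdac9 r was -0.09 (permutation adjusted p = 0.639) and for Kdm2b -0.22 (permutation adjusted p = 0.204). For Kmt5a it was 0.48 (permutation adjusted p = 0.00141) and for Dnmt1 -0.41 (permutation adjusted p = 0.00906). The part of Malat1 in the lower values of these probe sets was not tested.

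**Figure D4:**
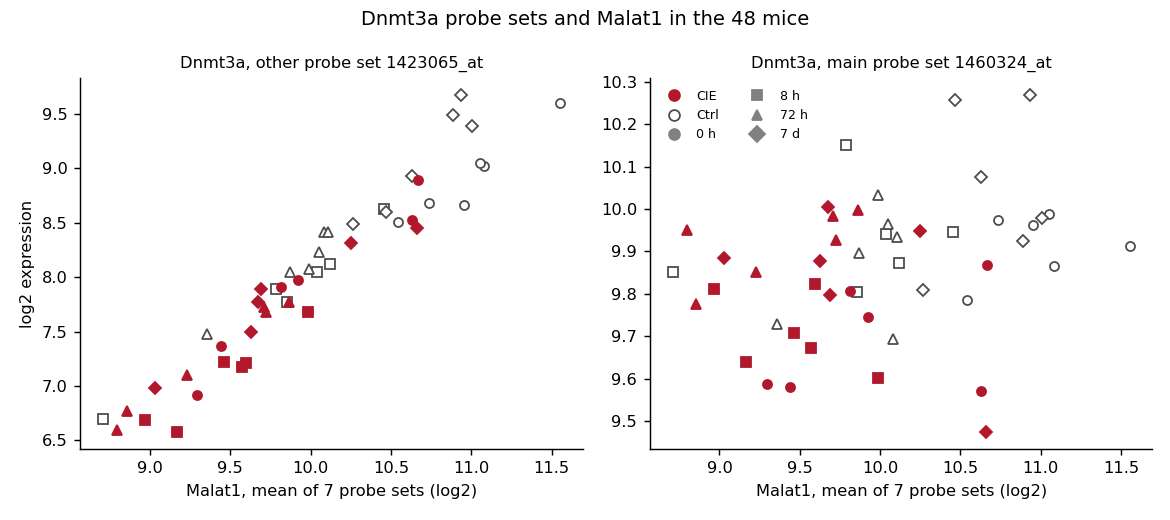
Log2 level of Dnmt3a in each of the 48 mice against the mean log2 level of 7 Malat1 probe sets, for probe set 1423065_at and for the main probe set 1460324_at, with CIE and Ctrl mice in different colors. The first follows Malat1 (r = 0.96 for deviations from group means) and the main probe set does not (r = 0.06).

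Among Ctrl mice, 0 of the 59 main probe sets were called against 0 h at 8 h, 72 h or 7 d. At an unadjusted limma p under 0.05 were 10, 8 and 5 members (16.9%, 13.6% and 8.47%), against 17.4%, 17.4% and 13.5% of all genes. The shares of all genes called were 0.456%, 0.445% and 0.264%. These comparisons share the Ctrl mice of 0 h, and in them the hour of the day and the time since the last exposure cannot be told apart. Of the 88 other probe sets 4 were called at 8 h, 2 at 72 h and 0 at 7 d, all lower than at 0 h. At an unadjusted limma p under 0.05 were 8 (9.09%) at 7 d, against 11.5% of such probe sets of all genes. The shares of such probe sets called over all genes were 1.62%, 1.08% and 0.155%. Kat6a 1437487_at differed from 0 h by -1.16 ± 0.24 at 8 h (adjusted p = 0.00462) and by -1.09 at 72 h (adjusted p = 0.0084), and its r with Malat1 was 0.88. Kat6a 1446405_at differed by -0.52 and -0.59. Kmt2c 1457193_at (-0.72) and Kdm5c 1426498_at (-0.52) were lower at 8 h, and none of these calls was kept with the hybridization set as a block. That fit also leaves out Ctrl mouse 2 of 0 h, so the block and the missing mouse cannot be told apart.

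Related enzymes and partners outside the name rule were read from 5 lists. At 0 h, 8 h, 72 h and 7 d their counts of calls stand against 1.64%, 2.29%, 0.0055% and 1.03% of all genes, and averaged over the times against 7.9%. At an unadjusted limma p under 0.05 were 18.6%, 18.4%, 7.57% and 18.7% of all genes at these times, and 27.4% averaged. Of 27 histone methyltransferases with other names, such as the SET domain and SMYD genes, 0 were called at any of the 4 times, with 4, 7, 0 and 2 at an unadjusted limma p under 0.05 at 0 h, 8 h, 72 h and 7 d. Averaged over the times 4 of the 27 were called, Setd3 (0.12, adjusted p = 0.000258) and Setd5 (0.16, 0.00165) higher, and Nsd3 (-0.12, 0.00568) and Smyd3 (-0.17, 0.00806) lower. Of 12 further demethylases and Jumonji proteins 0 were called at a time, with 3, 0, 0 and 1 at an unadjusted p under 0.05, and 0 averaged over the times, with 2 at such a p. Of 9 other acetyltransferases Ncoa3, a nuclear receptor coactivator, was lower at 8 h (-0.28, adjusted p = 0.00273). Crebbp, the coactivator CBP, was lower averaged over the times (-0.55, adjusted p = 2.24e-05) but was called at none of them. Of 17 readers of DNA methylation and enzymes that help remove it, Mbd2 rose at 0 h (0.26, adjusted p = 0.00297) and the cytidine deaminase Apobec1 at 8 h (0.39, adjusted p = 0.000315). Averaged over the times 2 of the 17 were called, Apobec1 (0.25, 1.67e-06) and Uhrf2 (0.14, 0.00904), both higher. Of 22 members of deacetylase corepressor complexes, Sin3b rose at 0 h (0.26, adjusted p = 0.000708) and Mta1, of the NuRD complex, fell at 8 h (-0.27, adjusted p = 0.000203). Averaged over the times 4 of the 22 were called, Tbl1xr1 (0.12, 0.00297), Phf21a (0.09, 0.00847) and Sin3b (0.09, 0.00478) higher and Mta1 (-0.10, 0.00224) lower.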

How the data were processed

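Total RNA of hippocampus from 48 male mice was hybridized to 1 array each. The deposited values are log2 expression per probe set, which the authors made with RMA and corrected for hybridization batch with ComBat. They were used as deposited, with 1 mean per group over all 48 arrays and limma 3.58.1 in R 4.3.3, with eBayes and Benjamini-Hochberg adjustment over 45037 probe sets, two-sided, called at 0.01 or less as in the study. Depth has no meaning for arrays, and the number of mice limits the precision. Probe sets were named through the platform annotation: 34945 had 1 symbol, 932 several and 9160 none. The members and lists were chosen with earlier results of these data known.

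Members named were those called at a time (else the 3 with the smallest p), those with another probe set called, the smallest joint p of each family, those called in other contrasts and those the study named from these mice. The 7 Malat1 probe sets, the correlations and the leaving out of Ctrl mice 18 and 22 at 7 d were chosen after seeing the data. These mice had a striatum and thalamus marker level above every mouse of the other groups. Hybridization sets were inferred from values that the arrays of a set share exactly, and which arrays formed the authors' batches is not given in the sources used here. They are 6 sets that hold 47 arrays in all, each with 1 mouse per group except that 1 set has no Ctrl mouse at 0 h, and 1 array is in no set. Correlations used 100000 permutations. The fits were tested on simulated data. The alternatives were another FDR, the set as a block, each time alone, centring, quantile normalization, dim probe sets left out, eBayes with trend, the mean of all probe sets of a gene and single mice left out.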

Additional observations from a re-analysis of the deposited data

Results flagged for a closer look

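In 40 groups of 6 mice of the named members, 2 held a mouse far from its group, and 5% of 40 is 2. The log2 level of Kmt2a in CIE mouse 11 at 0 h was 9.72, against 9.29 to 9.43 in the other 5 CIE mice. That of Kdm6b in CIE mouse 27 at 7 d was 8.89, against 8.66 to 8.74 in the others of its group, and it was still below all 6 Ctrl mice.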

How the results depend on the processing

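No paired analysis was possible because mouse numbers are not shared between groups. The hybridization set was fitted as a block instead, without Ctrl mouse 2 of 0 h, which is in no set. With the block the members called were 1 at 8 h and 1 at 7 d, in place of 3 and 2. The other probe sets called were 0 at 0 h, 0 at 7 d and 0 among Ctrl mice, in place of 4, 4 and 6. Over all 45037 probe sets the block gave 182, 666 and 250 calls at 0 h, 8 h and 7 d, in place of 865, 967 and 604. At 0 h and among Ctrl mice the block and the mouse left out cannot be told apart. With the arrays of each time alone, 0 members were called at 8 h and 0 at 7 d, and 0 other probe sets at 0 h and 7 d. Calls over the whole array were then 42 at 0 h, 499 at 8 h and 1 at 7 d. At an FDR of 0.05 the members called were 1 at 0 h, 5 at 8 h, 4 at 7 d, 14 on average over the times and 4 among Ctrl mice, in place of 0, and the other probe sets 11, 3 and 10 at 0 h, 8 h and 7 d and 27 among Ctrl mice. With dim probe sets left out the counts were 1 member at 0 h and 2 other probe sets at 8 h and 2 at 7 d. The mean of all probe sets of a gene gave 2 members at 0 h, 1 at 7 d and 14 on average. At 7 d, centring each array gave 1 and testing 1 probe set per gene gave 1. Without Ctrl mice 18 and 22, chosen after seeing the data, 0 members and 0 other probe sets were called at 7 d. With 1 mouse left out at a time, the members called ranged over 0 to 1 at 0 h, 0 to 4 at 8 h, 0 to 0 at 72 h, 0 to 2 at 7 d, 5 to 9 on average and 3 to 7 in the joint test, and the other probe sets over 0 to 8 at 0 h, 1 to 4 at 8 h, 0 to 0 at 72 h and 0 to 7 at 7 d. Another probe set of the gene turned the direction for Dnmt3a at 0 h (0.0288), Kmt5a at 8 h (0.0033), Kdm2b at 8 h (0.0029), Hdac10 at 72 h (-0.0171) and Kdm5b at 72 h (0.0342 and 0.0777). Normalizing by quantiles again changed the call of 0 named members. For the settings without a count over the whole array, the member counts do not show a change particular to the members. The cause of the changes between settings was not tested.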
